A study of Mus musculus with 5 samples.

Results

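BVECTN_5, a line grown from a mouse thyroid tumor, was compared with the line BVE by RNA sequencing of cells in culture. Both lines carry BRAFV600E, the mutation that drove the tumors, and BVECTN_5 is labelled as having lost Ctnnb1, the gene of β-catenin, in addition. The study calls BVE the BVE-Ctnnb1wt cells and BVECTN_5 one of the BVE-Ctnnb1null cells, and it asked how loss of Ctnnb1 alters these tumor cells. The comparison used 3 of the 5 libraries of the series. BVECTN_5 gave 1 library at P7, for which the labels do not state thyroid-stimulating hormone (TSH). BVE gave 2 libraries at P20, replicate 1 without TSH and replicate 2 with TSH. P is read here as passage, while the protocol text gives about 25 passages for wt and 20 for null lines and a medium with 4 mU/mL TSH for all. The other null libraries, BVECTN_4 (P8, without TSH) and BVECTN_4A (P11, TSH not stated), are given beside the results for orientation. The labels give no strain, age or sex of the donor mice and no driver of the recombination, and do not say whether the BVE libraries came from separate cultures. The study calls its replicates biological, but the number it states differs from the number of BVE libraries analysed here. With 1 library on one side, genotype cannot be told apart from line or passage.

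Genes were taken where the BVECTN_5 library lay outside both BVE libraries. The total estimated count was 29415980 in BVECTN_5, against 30432737 in BVE without TSH and 30713079 in BVE with TSH. Of 17923 genes listed in any library of the series, 13743 had at least 10 counts in 1 of the 3 libraries and were kept. Levels are given as CPM, counts scaled to one library size, after TMM normalization, a scaling that sets the bulk of genes equal between libraries. The fold is that between BVECTN_5 and the nearer BVE library, with values under 3 counts set to 3 counts per library (0.0823 CPM in BVECTN_5, 0.121 and 0.137 CPM in BVE without and with TSH). A gene was listed when this fold was at least 4. These values chose the genes, so they are descriptions without a test, and intervals and floors cover counting error only.

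β-catenin joins cadherins to the cytoskeleton at cell junctions and, in the nucleus, acts with TCF and LEF factors to switch on Wnt target genes. Thyroid follicular cells are epithelial and are known by Nkx2-1, Pax8, Foxe1 and Hhex, the factors that set their identity, and by Tg and Slc5a5, which serve to make thyroid hormone. Fibroblasts are known by matrix proteins such as periostin (Postn), decorin (Dcn) and fibrillar collagens and by the surface protein Thy1.

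Ctnnb1 (NCBI gene 12387) had a level of 260 CPM in BVE without TSH, 367 CPM in BVE with TSH and 337 CPM in BVECTN_5. On this scale the library labelled as null thus lay between both BVE libraries, and BVECTN_4 and BVECTN_4A were above both, at 408 and 559 CPM. In deposited FPKM BVECTN_5 was above both, at 117.8 against 59.3 and 73.75, in the direction of the shift of all genes on that scale that is given below. In edgeR's quasi-likelihood test the log2 fold change was 0.11 (standard error 0.55, Benjamini-Hochberg adjusted p = 0.939). The amount of Ctnnb1 RNA therefore does not bear out the label. It cannot decide against the label either, because the deposited values, 1 per transcript, hold no exons apart. No difference below is ascribed to the genotype.

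Of the 13743 genes, 1480 (10.8%) were at least 4-fold above both BVE libraries and 688 (5.01%) at least 4-fold below both. By any amount, BVECTN_5 lay above both for 46.4% and below both for 39.9%, and between them for 1885 genes. The BVE libraries differed from each other at least 4-fold for far fewer genes, 221 (1.61%) higher and 191 (1.39%) lower with TSH. For 1466 of the 1480 higher and 685 of the 688 lower genes the distance of BVECTN_5 to the nearer BVE library exceeded the distance between both BVE libraries. The 4-fold limit largely set that outcome, because the BVE libraries differed by a median absolute log2 of only 0.41, so it supports nothing. BVECTN_5 was also at least 4-fold above all 4 other libraries for 443 genes (3.22%) and at least 4-fold below all 4 for 105 (0.764%). Genes just inside the limit were Gm20362 (log2 ratio 2.001) and Grik5 (-2), and just outside it Rad17 (1.999) and Wwox (-1.999).

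The share of higher genes depended on scaling. The 10 genes with the most counts made up 14.27% of BVE without TSH, 14.96% of BVE with TSH and 7.92% of BVECTN_5. After TMM normalization 68.3% of the genes past 4-fold were higher in BVECTN_5, while with library totals it was 88.3% (2682 higher, 355 lower) and in the deposited FPKM 88.1% (2317 higher, 313 lower). The median log2 ratio of all genes to the mean of the BVE libraries was 0.08 after TMM normalization, 0.78 with library totals and 0.71 in FPKM. Smaller differences are therefore read relative to that shift.

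No gene passed the test across the series. In edgeR's quasi-likelihood test on all 5 libraries, which assumes that the lone BVECTN_5 library varies like the other lines, 0 genes were higher (0.00%) and 0 lower (0.00%) than in BVE at an adjusted p of 0.05. The lowest adjusted p was 0.195, and at an unadjusted p under 0.05 there were 1208 higher and 728 lower genes. Against BVECTN_4 and BVECTN_4A the test also called 0 higher (0.00%) and 0 lower (0.00%) genes, with a lowest adjusted p of 0.14 and, at an unadjusted p under 0.05, 615 higher and 373 lower genes. DESeq2 on the same libraries called 525 higher and 411 lower genes against BVE, and 193 and 155 against the other null lines. The biological coefficient of variation over the 5 libraries was 0.654. With the spread taken from the BVE libraries alone, edgeR called more genes in both directions. Both libraries are of the same line and differ in TSH, so that spread holds no difference between lines. An exact permutation of 1 library against 2 cannot give a p under 0.333. Below, "above" and "below" describe these libraries, and counts of list members past 4-fold are to be read against the 10.8% above and 5.01% below over all genes. Some members were kept only through their counts in the library where they are high, which favors members that lie apart. Counts and medians of lists thus describe the kept members and support nothing.

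**Figure D1:**
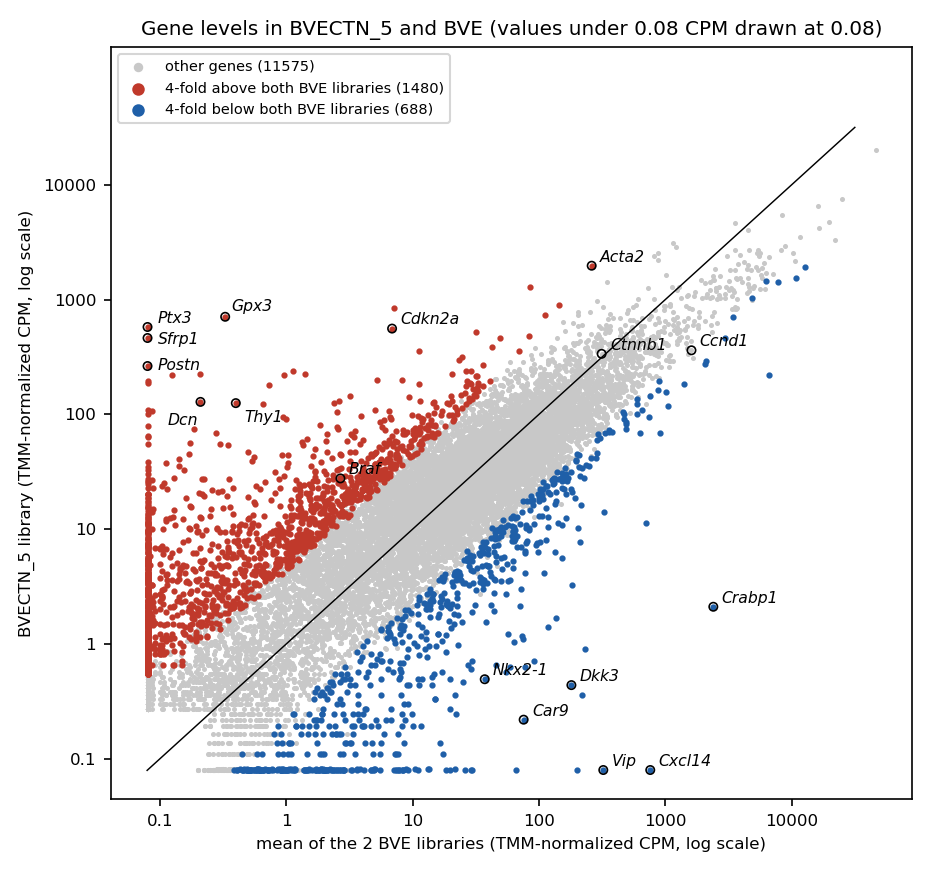
Each point is 1 of 13743 genes, with its mean level in both BVE libraries on the x axis and its level in BVECTN_5 on the y axis (TMM-normalized CPM, log scales, values under 0.08 drawn at 0.08, line of equal levels in black). Red points are the 1480 genes at least 4-fold above and blue points the 688 genes at least 4-fold below both BVE libraries. Ptx3, Sfrp1 and Postn sit at the left edge, Vip and Cxcl14 at the lower edge, and Ctnnb1 on the line.

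Ptx3, Sfrp1 and Postn stood furthest above BVE. Taking genes of at least 50 CPM on the high side, 181 were past 4-fold above and 168 below, and the 12 at the head of each order are given here. Ptx3, a secreted pattern recognition protein of innate immunity, had 0 counts in both BVE libraries and 21042 counts in BVECTN_5 (577 CPM, 95% Poisson interval 570 to 585 CPM), at least 4218-fold higher. BVECTN_4 had 0 counts and BVECTN_4A had 4, so the transcript was abundant in 1 library of 5.

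Postn, a matricellular protein, had 0 counts in both BVE libraries and 9617 in BVECTN_5 (264 CPM, 95% Poisson interval 259 to 269), at least 1928-fold higher. BVECTN_4 and BVECTN_4A had 12 and 2 counts. All 3 listed Postn transcripts were at 0 in BVE, and in BVECTN_5 they had estimated counts of 4447.9, 4394.6 and 774.6. Fbln1, a fibulin of elastic fibers and basement membranes, was at least 802-fold higher, with 0 counts in both BVE libraries and 4003 in BVECTN_5.

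Regulators of signalling stood beside them. Sfrp1, a secreted protein that binds Wnt ligands, had 0 counts in BVE without TSH, 1 in BVE with TSH and 16876 in BVECTN_5 (463 CPM). BVECTN_4 had 73 and BVECTN_4A 23 counts, so BVECTN_5 stood above all 4 other libraries. Grb10, an imprinted adaptor that restrains insulin receptor signalling, had 0 counts in both BVE libraries and 7138 in BVECTN_5 (196 CPM), at least 1431-fold higher. Osmr, the receptor subunit for oncostatin M, had 2 counts in each BVE library and 3896 in BVECTN_5 (107 CPM).

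The remaining leading genes had other roles. Gpx3, a secreted peroxidase, had 0.202 and 0.456 CPM in BVE without and with TSH and 709 CPM in BVECTN_5, 1553-fold higher, with 29.0 CPM in BVECTN_4. Fabp4, a fatty acid carrier of adipocytes and macrophages, had 5 counts in BVE without TSH, 1 in BVE with TSH and 8042 in BVECTN_5, 1092-fold above the nearer one. Lgi2 and Adam23, which encode a secreted protein and a membrane protein that binds the related Lgi1, had 6912 and 3697 counts in BVECTN_5 against at most 1 count in any BVE library. Nsg1, an endosomal protein of neurons, was 700-fold and Lmcd1, a LIM domain protein of muscle, 493-fold higher. All 12 genes were at least 4-fold above all 4 other libraries, and for 8 of them both BVE libraries had at most 3 counts.

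Cxcl14, Vip and H2-L stood furthest below BVE. Cxcl14, a chemokine of epithelia, had 19137 counts in BVE without TSH, 16385 in BVE with TSH and 0 in BVECTN_5, at least 9082-fold lower. BVECTN_4 and BVECTN_4A had 3 and 230 counts, so the level in BVECTN_5 was apart from BVE but not from BVECTN_4. Vip, a neuropeptide that relaxes smooth muscle, had levels of 305 and 342 CPM in BVE without and with TSH and 1 count in BVECTN_5. Penk, the precursor of enkephalins, had 157 and 282 CPM against 0.357 CPM in BVECTN_5, 441-fold lower, with 0.0903 CPM in BVECTN_4 and 15.9 CPM in BVECTN_4A.

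Crabp1, which carries retinoic acid in the cytoplasm, was the most abundant of the 12 in counts, with 50726 in BVE without TSH and 60254 in BVE with TSH. It had 77 counts in BVECTN_5 (2.11 CPM), 970-fold lower, and 109 and 355 in BVECTN_4 and BVECTN_4A. Dkk3 and Dkk2, of the Dickkopf family, were 306-fold and 90.1-fold lower. Dkk3 had 134.5 and 227 CPM in BVE without and with TSH, 0.439 CPM in BVECTN_5, 6.62 CPM in BVECTN_4 and 21.9 CPM in BVECTN_4A, which puts BVECTN_5 lowest.

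The class I gene H2-L had 4748 and 4534 counts in BVE and 0 in BVECTN_5, and the other null libraries held 0 and 2. Ptgis, which makes prostacyclin, was 67.8-fold lower, and BVECTN_4 and BVECTN_4A had 2 counts each. Arap3, a GTPase regulator, was 113-fold lower, Nol3, an inhibitor of apoptosis, 100.2-fold, and Slc14a1, a urea transporter, 73.1-fold. The pseudogene Ubb-ps, 225-fold lower, shares sequence with Ubb, so its reads could have been divided between them. BVECTN_5 was at least 4-fold below all 4 other libraries for 4 of the 12 (Dkk3, Arap3, Nol3 and Slc14a1). Over all 24 genes the edgeR adjusted p lay between 0.195 and 0.334 and the unadjusted p between 8.42e-05 and 0.0351.

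**Figure D2:**
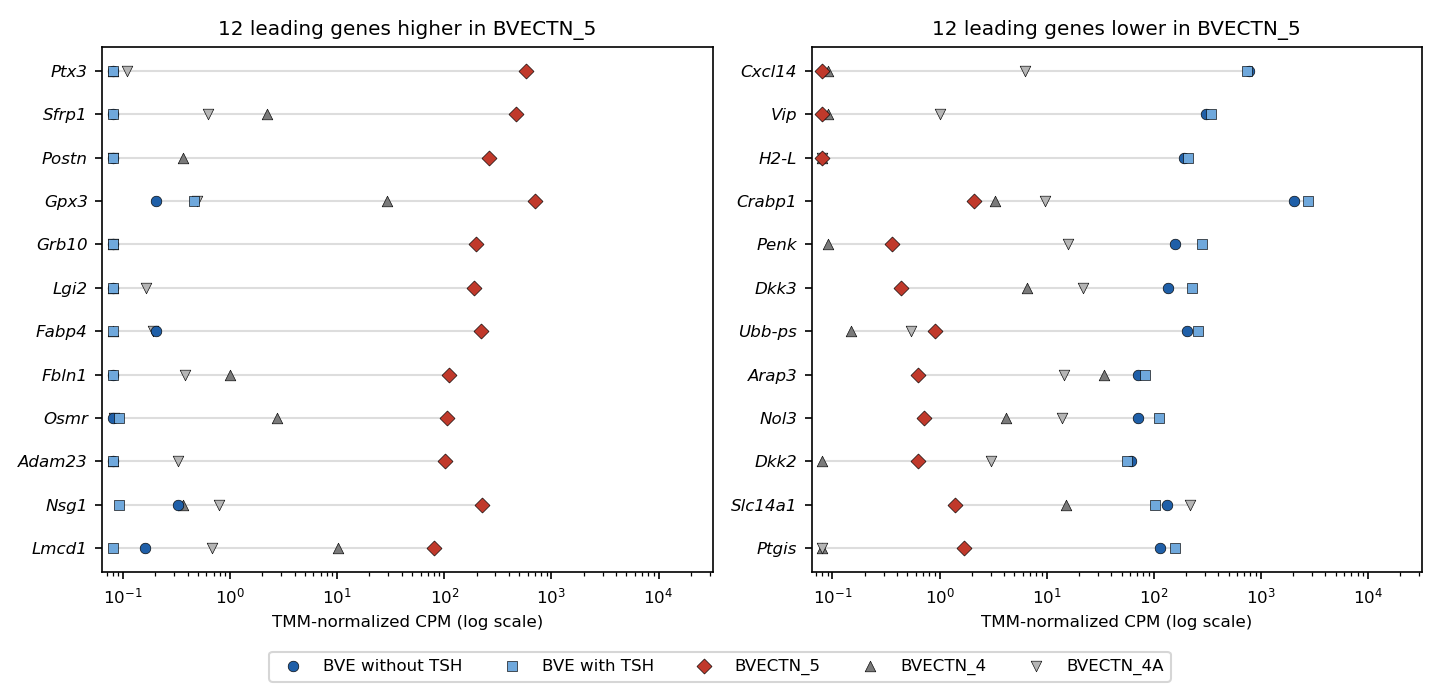
Levels in all 5 libraries (x axis, TMM-normalized CPM, log scale, values under 0.08 drawn at 0.08) of the 12 leading genes above BVE (left) and below BVE (right), 1 symbol per library. BVECTN_5 stands alone at the right for the 12 higher genes, while for lower genes such as Cxcl14, Vip, H2-L and Ptgis BVECTN_4 or BVECTN_4A lies as low.

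The stretches of 250 bases before annotated starts of leading genes are shown because the genes at both ends of the order differ between lines by the widest margins. In the RefSeq promoter table of GRCm38.p6, 9 of the 12 higher and 4 of the 12 lower genes matched, and the first 2 matched genes of each order are printed 5′ to 3′ on the gene's strand. Capitals mark matches on either strand to TATAAA (the TATA box), TGANTCA (the AP-1 site) or CTTTGA (the core of the TCF and LEF site), none of which overlapped another. The first stretch is at chr3:66219637-66219886 (plus strand), the Postn stretch before the downstream of its annotated starts at chr3:54360857-54361106 (plus), the Cxcl14 stretch at chr13:56296552-56296801 (minus) and the Vip stretch at chr10:5638968-5639217 (plus). The Postn stretch before the upstream start, at chr3:54359017-54359266 (plus), held 0 matches and is not printed.
Ptx3: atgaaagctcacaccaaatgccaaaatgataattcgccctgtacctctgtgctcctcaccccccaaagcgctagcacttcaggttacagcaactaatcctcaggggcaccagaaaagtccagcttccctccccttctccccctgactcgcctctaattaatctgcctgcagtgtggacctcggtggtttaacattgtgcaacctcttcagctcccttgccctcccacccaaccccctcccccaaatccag
Postn: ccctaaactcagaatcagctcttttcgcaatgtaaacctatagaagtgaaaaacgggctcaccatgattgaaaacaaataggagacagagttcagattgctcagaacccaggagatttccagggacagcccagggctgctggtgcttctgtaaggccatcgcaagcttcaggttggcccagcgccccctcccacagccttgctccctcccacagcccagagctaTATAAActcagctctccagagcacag
Cxcl14: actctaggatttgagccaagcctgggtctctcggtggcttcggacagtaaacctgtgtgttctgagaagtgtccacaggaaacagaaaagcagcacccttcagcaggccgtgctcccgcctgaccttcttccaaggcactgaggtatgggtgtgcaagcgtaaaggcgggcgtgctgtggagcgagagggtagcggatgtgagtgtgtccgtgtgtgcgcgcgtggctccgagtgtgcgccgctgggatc
Vip: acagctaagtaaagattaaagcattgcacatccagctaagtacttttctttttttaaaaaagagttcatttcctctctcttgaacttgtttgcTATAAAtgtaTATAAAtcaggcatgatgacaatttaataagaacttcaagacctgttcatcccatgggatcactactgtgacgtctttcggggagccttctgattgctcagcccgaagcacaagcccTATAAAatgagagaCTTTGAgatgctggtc
TATAAA was held by 12.4% of all 32851 stretches in the table, TGANTCA by 6.75% and CTTTGA by 13.8%. The 9 matched higher genes gave 12 stretches, as a gene can have several starts. Of these 12, 1 held TATAAA (Postn), 0 TGANTCA and 0 CTTTGA. Of the 4 stretches of lower genes, 2 held TATAAA (Vip and Dkk2), 0 TGANTCA and 1 CTTTGA (Vip). These are matches of letters and describe no binding.

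Markers of cell identity were set against the label of thyroid epithelial cells. Nkx2-1 had levels of 26.03 and 48.5 CPM in BVE without and with TSH, 0.494 CPM in BVECTN_5 (95% Poisson interval 0.293 to 0.781), 19.1 CPM in BVECTN_4 and 64.7 CPM in BVECTN_4A. BVECTN_5 was 52.7-fold below the nearer BVE library and the lowest of all 5 libraries. Pax8 went the other way, with 1.29 and 0.639 CPM in BVE and 5.35 CPM in BVECTN_5 (4.14-fold), below the 42.3 and 26.5 CPM of BVECTN_4 and BVECTN_4A. Hhex was 4.11-fold and Slc5a5, the iodide transporter, 4.57-fold lower in BVECTN_5.

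Some genes that define thyroid cells were near 0 in all 3 libraries. Foxe1 had 0, 1 and 3 counts in BVE without TSH, BVE with TSH and BVECTN_5, and the TSH receptor gene Tshr had 5, 3 and 2. Tg, the precursor of thyroid hormone, had 8.53 and 10.5 CPM in BVE and 2.36 CPM in BVECTN_5. A factor and the hormone receptor that define the labelled cell type were thus near 0 in both lines. Of 24 thyroid genes, 11 were kept, of which 4 were at least 4-fold above and 3 at least 4-fold below BVE, with a median log2 ratio of 1.13 against 0.08 for all genes. In FPKM the list was at 0.82 and all genes at 0.71, so the list lay little above the bulk on that scale.

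Dcn and Thy1, chosen as fibroblast markers with Postn, were abundant in BVECTN_5 alone, while most of the fibroblast list was not 4-fold apart from BVE. Dcn had 7 and 3 counts in BVE without and with TSH and 4686 in BVECTN_5 (129 CPM, 95% Poisson interval 125 to 132), against 2 and 3 in BVECTN_4 and BVECTN_4A. Thy1 had 13 and 6 counts in BVE and 4571 in BVECTN_5 (125 CPM, interval 122 to 129), 238.7-fold above the nearer BVE library. Both transcripts were thus close to absent from the other 4 libraries. In RNA from a whole culture, a few cells with much of a transcript and many cells with little of it cannot be told apart.

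Fibrillar collagens and the receptors of PDGF were present in both lines. Col1a1, the chain of type I collagen, had 951 and 798 CPM in BVE and 2202 CPM in BVECTN_5, and Col1a2 had 319 and 376 CPM against 1410 CPM. The growth factor receptor Pdgfra had 29.2 and 25.5 CPM against 116 CPM, just under 4-fold, and Pdgfrb 35.5 and 39.2 CPM against 104 CPM. Lum, the proteoglycan lumican, had 9, 0 and 1 counts in BVE without TSH, BVE with TSH and BVECTN_5. BVE thus already held much collagen RNA, while Postn, Dcn and Thy1 set BVECTN_5 apart from it.

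Of 46 fibroblast and mesenchymal genes 45 were kept, and 15 (33.3%) were at least 4-fold above and 2 (4.4%) at least 4-fold below BVE. By any amount 30 lay above and 13 below both BVE libraries, among the latter Cd34, a surface sialomucin, at 1464 and 655 CPM in BVE and 119 CPM in BVECTN_5. The median log2 ratio of the list was 1.33, against 0.08 for all genes, and 12 members were at least 4-fold outside all 4 other libraries. Col6a3, a chain of type VI collagen, had 0.283 and 0.274 CPM in BVE and 69.0 CPM in BVECTN_5, 244-fold higher. Tnc, the matrix glycoprotein tenascin C, was 26.65-fold higher, with 50.1 CPM in BVECTN_4 as well. The summed FPKM of the list was 5892 and 8224 in BVE and 8088 in BVECTN_5. Its most abundant member, the intermediate filament gene Vim, had an FPKM of 1478 and 3406 in BVE and 1401 in BVECTN_5.

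Contractile genes had 7 of 15 kept members at least 4-fold above and 1 below BVE, with a median log2 ratio of 0.73. Acta2, the actin of smooth muscle and myofibroblasts, had 262.5 and 261 CPM in BVE, 1973 CPM in BVECTN_5, 398 CPM in BVECTN_4A and 0 counts in BVECTN_4. BVECTN_5 was thus the highest library by 7.52-fold over BVE. Cnn1, the calponin of smooth muscle, had 0.889 and 1.05 CPM in BVE and 222 CPM in BVECTN_5, 211-fold higher, and Tagln, an actin-binding protein, was 31.5-fold higher. Myh11, the myosin that defines smooth muscle, had 0, 0 and 6 counts. Without BVE replicate 1 (no TSH) and without replicate 2 the median of this list was 0.89 and 2.42.

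Most epithelial genes, too, lay above BVE. Of 42 kept, 14 (33.3%) were at least 4-fold above and 2 (4.8%) below BVE, and by any amount 31 lay above and 10 below both BVE libraries, with a median log2 ratio of 1.47. Cdh1, the cadherin of epithelial junctions to which β-catenin binds, had 10.7 and 10.2 CPM in BVE and 75.6 CPM in BVECTN_5 (7.06-fold), between the 547 CPM of BVECTN_4 and the 0 counts of BVECTN_4A. Epcam, an epithelial surface protein, was 7.40-fold higher in the same arrangement. Krt8, a keratin of simple epithelia, was lower, with 1418 and 2815 CPM in BVE and 294 CPM in BVECTN_5 (4.82-fold), and its partner Krt18 was at 552.5, 899 and 413 CPM. Cdh1 and Epcam were thus higher than in BVE in the same library that held Postn, Dcn and Thy1.

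Of 17 kept genes of adherens junctions 4 were at least 4-fold above and 2 below BVE (median log2 ratio 0.10, and 0.00 and 0.52 without BVE replicate 1 and replicate 2). Among other cadherins, Cdh11 of mesenchymal cells was 15.9-fold higher (1.70 and 0.685 CPM in BVE, 27.0 CPM in BVECTN_5). Cdh3 (P-cadherin) was 9.54-fold and Cdh13 (a cadherin without a cytoplasmic tail) 7.59-fold lower. Of the 13 kept transcription factors of epithelial-mesenchymal transition, 3 were at least 4-fold above and 0 below BVE. Snai2 was among them, with 0.566 and 0.0913 CPM in BVE and 9.41 CPM in BVECTN_5, while Twist1 had 66.9, 84.8 and 87.4 CPM in BVE without TSH, BVE with TSH and BVECTN_5.

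**Figure D3:**
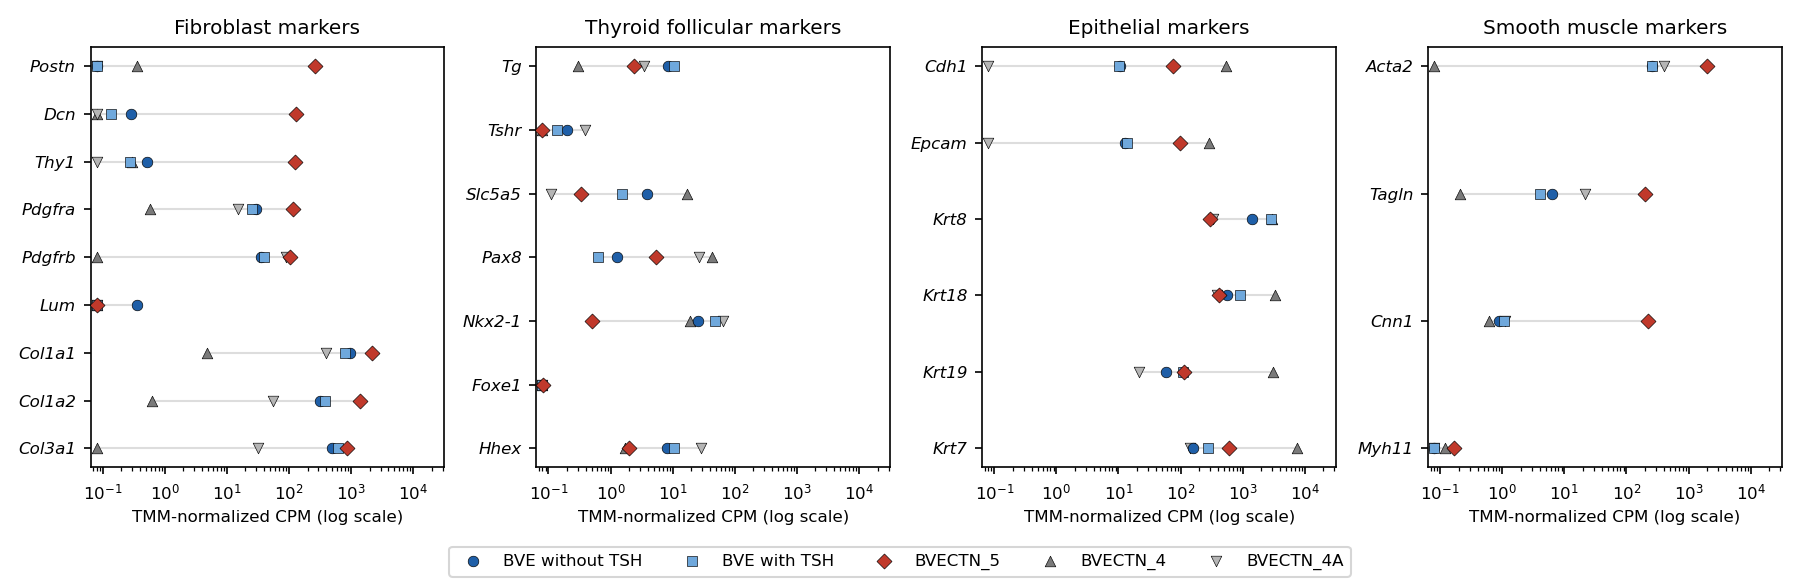
Levels of marker genes in all 5 libraries (x axis, TMM-normalized CPM, log scale, values under 0.08 drawn at 0.08), grouped as fibroblast, thyroid follicular, epithelial and smooth muscle markers, 1 symbol per library. Postn, Dcn, Thy1 and Cnn1 are high in BVECTN_5 only, Nkx2-1 is lowest there at 0.494 CPM, and Foxe1 is near 0 in every library.

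Markers of other cell types the cultures could hold differed by type. The immune genes Ptprc, Cd3e, Ncr1 and Adgre1 were listed in no library, and of the 20 immune genes 7 were kept, with a summed FPKM of 18.0 and 23.7 in BVE and 63.4 in BVECTN_5, led by Cd68. Csf1r had 0, 13 and 43 counts in BVE without TSH, BVE with TSH and BVECTN_5. The endothelial markers Pecam1, Cdh5 and Tek had 4, 0 and 0 counts in BVECTN_5, although Kdr, a receptor for VEGF, had 0 counts in BVE and 102 in BVECTN_5. Of 4 endothelial markers kept, 2 (Kdr and Eng, a co-receptor for TGF-beta) were at least 4-fold above BVE and all other libraries, and the median log2 ratio was 2.44. In FPKM that median was 1.32, against 0.71 for all genes. The endothelial list summed to an FPKM of 2.74 and 2.08 in BVE and 10.35 in BVECTN_5. Sox10 of Schwann cells and Chga of endocrine cells were at 0 in BVECTN_5. Of the 18 genes of C cells, parathyroid, neural crest and Schwann cells, 6 were kept, 0 at least 4-fold above and 1 below BVE. The part of such cells in the results was not tested. Of 16 muscle, pericyte and adipocyte genes, 6 were kept, and 3 were at least 4-fold above and 1 at least 4-fold below BVE. Above BVE were Pparg (25.2 CPM against 1.74 and 3.42) and Lpl (37.1 CPM against 6.51 and 4.29) beside Fabp4. That list summed to an FPKM of 473 in BVECTN_5 against 4.84 and 3.95 in BVE, of which Fabp4 alone gave 438 in BVECTN_5, and its part in the results was not tested.

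Genes of the Y chromosome separated the lines. Ddx3y, Eif2s3y, Kdm5d and Uty had 0 counts in both BVE libraries and 79, 138, 87 and 34 counts in BVECTN_5. In BVECTN_4 and BVECTN_4A they had at most 1 count. Xist, the RNA of X inactivation, had 0.647 and 0.228 CPM in BVE, 6.12 CPM in BVECTN_5 and 21.85 and 9.32 CPM in BVECTN_4 and BVECTN_4A. BVECTN_5 thus held both Y transcripts and Xist, and the part of donor sex or chromosome loss in any difference between lines was not tested.

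Matrix-degrading enzymes differed in both directions. Of 34 proteases and inhibitors, 8 were at least 4-fold above and 4 below BVE (median log2 ratio 1.18). Plau, the urokinase, had 10.0 and 12.5 CPM in BVE and 356 CPM in BVECTN_5 (28.6-fold), and Mmp3, a stromelysin, 2.34 and 3.01 CPM against 45.5 CPM. Mmp2, a gelatinase, had 310 and 341 CPM in BVE and 14.2 CPM in BVECTN_5, 21.9-fold lower, and BVECTN_4 and BVECTN_4A lay between at 21.97 and 127 CPM. Mmp23, a membrane-bound protease, had 360 and 820 counts in BVE and 1 in BVECTN_5. Mmp10, the other stromelysin, went against Mmp3, with 24.25 and 15.2 CPM in BVE and 2.06 CPM in BVECTN_5, 7.38-fold lower.

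Collagens other than those of the fibroblast list lay on both sides of BVE. Of 21 kept, 4 (19%) were at least 4-fold above and 3 (14.3%) below BVE. Their median log2 ratio was 1.22, and 0.93 and 1.34 without BVE replicate 1 and replicate 2, while in FPKM it was 0.68, below the 0.71 of all genes. All 4 above BVE (Col15a1, Col23a1, Col8a2 and Col28a1) had at most 2 counts in a BVE library and 42 to 143 in BVECTN_5, through which alone they were kept. The summed FPKM of the list was 238 and 230.2 in BVE and 119 in BVECTN_5. Col4a6, a chain of type IV collagen, had 27.4 and 32.2 CPM in BVE, 0.714 CPM in BVECTN_5 and 34.3 and 45.1 CPM in BVECTN_4 and BVECTN_4A. BVECTN_5 stood alone, 38.35-fold below BVE. Col18a1, the source of endostatin, was 13.1-fold lower (925.5 and 899 CPM in BVE, 68.55 CPM in BVECTN_5), and Col4a4 10.5-fold. Among 27 integrins and laminins, 4 (14.8%) were at least 4-fold above and 1 (3.7%) below BVE, near the shares over all genes, with Lama4 (47.5 CPM against 1.70 and 2.51) the furthest above.

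Secreted Wnt modulators differed in both directions. Of 37 kept ligands, receptors and antagonists, 12 were at least 4-fold above and 4 below BVE, and 9 were at least 4-fold outside all 4 other libraries. The median log2 ratio was 1.22. Besides Sfrp1, the related antagonist Sfrp2 had 0 counts in both BVE libraries and 334 in BVECTN_5, at least 66.95-fold higher. Rspo2, which strengthens Wnt signalling through Lgr receptors, had 0 counts in every other library of the series and 413 in BVECTN_5 (11.3 CPM, 95% Poisson interval 10.3 to 12.5). Ror2, a receptor for Wnt5a, had 5 counts in each BVE library and 740 in BVECTN_5, 89.0-fold higher. Among the Sfrp and Dkk genes named, Sfrp1 and Sfrp2 thus lay above and Dkk2 and Dkk3 below BVE.

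Targets of β-catenin with TCF and LEF factors were read in the library labelled null. Of 21 kept, 4 (19%) were at least 4-fold above and 0 below BVE, against 10.8% and 5.01% of all genes, and the median log2 ratio was 1.28. By any amount 16 lay above and 3 below both BVE libraries. Nkd2, a feedback inhibitor, had 0 counts in both BVE libraries and 573 in BVECTN_5, at least 115-fold higher. Lef1 had 0 and 0 counts against 141, and Lgr4, a receptor for R-spondins, was 14.1-fold higher. Ccnd1, cyclin D1, was lower, with 1869 and 1354 CPM in BVE and 362 CPM in BVECTN_5 (3.74-fold), and BVECTN_4 and BVECTN_4A were above both BVE libraries at 2364 and 2556 CPM. Axin2, a feedback target chosen after its values were seen, had 5.21 and 9.04 CPM in BVE and 2.83 CPM in BVECTN_5.

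Receptor tyrosine kinases and their ligands had 13 of 42 kept members (31.0%) at least 4-fold above and 3 (7.1%) below BVE (median log2 ratio 0.65, and 1.24 and 0.86 without BVE replicate 1 and replicate 2). Igf2, a growth factor of the fetus, had 0 counts in both BVE libraries and 989 in BVECTN_5, at least 198-fold higher, while Igf1 had 8.77 and 9.17 CPM in BVE and 0.439 CPM in BVECTN_5. Vegfc, a growth factor of lymph vessels, had 3 counts in each BVE library and 1019 in BVECTN_5 (28.0 CPM). Gas6, a ligand of Axl, had 0 and 3 counts against 293, and Axl itself was at 1588, 1259 and 556 CPM. The insulin-like growth factors thus pointed in opposite directions.

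Genes of ERK output lay on both sides of BVE. Of 39 kept, 3 (7.7%) were at least 4-fold above and 3 (7.7%) below BVE, near the 10.8% and 5.01% of all genes, and the median log2 ratio was -0.57 after TMM normalization and 0.11 with library totals. Without BVE replicate 1 and without replicate 2 it was -0.10 and -0.76. Hmga1, an architectural chromatin factor, had 2324 and 1833 CPM in BVE and 273 CPM in BVECTN_5 (6.72-fold lower), and Jun, of the AP-1 factor, 321 and 197 CPM against 41.8 CPM. Fos had 0.525 and 0.411 CPM in BVE and 3.95 CPM in BVECTN_5. Braf itself, chosen after its values were seen, had 80 and 47 counts in BVE, 1010 in BVECTN_5 (27.7 CPM, 8.57-fold) and 132 and 250 in BVECTN_4 and BVECTN_4A. BVECTN_5 was thus the highest of 5 libraries for Braf RNA, with an edgeR adjusted p of 0.287.

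In the TGF-beta and BMP pathway 6 of 41 kept genes (14.6%) were at least 4-fold above and 4 (9.8%) below BVE, against 10.8% and 5.01% of all genes (median log2 ratio 0.59, and 0.96 and 0.51 without BVE replicate 1 and replicate 2). Tgfbi, a matrix protein induced by TGF-beta, had 4.45 and 11.96 CPM in BVE and 199 CPM in BVECTN_5, 16.65-fold higher, and Tgfbr3, a co-receptor, was 15.7-fold higher. Bmp2 had 25.6 and 9.40 CPM in BVE and 0.110 CPM in BVECTN_5, and Bmp7 was 11.7-fold lower. Of 24 targets of YAP and TAZ, 4 were at least 4-fold above and 0 below BVE (median log2 ratio 0.83), with Vgll3, a TEAD cofactor, at 3.52, 3.06 and 67.3 CPM in BVE without TSH, BVE with TSH and BVECTN_5. F3, tissue factor, was 6.94-fold higher.

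Among cell cycle brakes and targets of p53, Cdkn2a stood furthest from BVE. Cdkn2a, which encodes the tumor suppressors p16 and p19 from alternative first exons, had 6.02 and 7.76 CPM in BVE, 559 CPM in BVECTN_5 (95% Poisson interval 552 to 567), 87.3 CPM in BVECTN_4 and 2.13 CPM in BVECTN_4A. BVECTN_5 was 72.1-fold above BVE. Of the listed transcripts, 1 had 149 and 170 estimated counts in BVE and 16853.4 in BVECTN_5, and the other 0, 0 and 3527.6. Bax and Bbc3, which promote apoptosis and are targets of p53, were 4.76-fold and 5.33-fold lower, and the inhibitor Cdkn1a had 424 and 419 CPM in BVE and 141 CPM in BVECTN_5. In that list of 23 genes, 4 (17.4%) were at least 4-fold above and 3 (13.0%) below BVE. Among 34 genes of progression 1 (2.9%) was at least 4-fold above and 0 below BVE (median log2 ratio 0.41, and -0.14 and 1.26 without BVE replicate 1 and replicate 2). Top2a had 17.8, 41.8 and 132 CPM in BVE without TSH, BVE with TSH and BVECTN_5.

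Imprinted growth genes had 9 of 20 kept members (45.0%) at least 4-fold above and 3 (15.0%) below BVE, against 10.8% and 5.01% of all genes. Their median log2 ratio was 1.18, and 1.92 and 1.25 without BVE replicate 1 and replicate 2. Besides Grb10 and Igf2, Ndn, a brake of neuronal growth, had 0.243 and 0.183 CPM in BVE and 12.6 CPM in BVECTN_5 (51.9-fold), with 0 counts in BVECTN_4 and 55.4 CPM in BVECTN_4A. Dlk1, an inhibitor of adipocyte differentiation, had 2 and 0 counts in BVE and 743 in BVECTN_5. Peg3, a zinc finger gene, was lower, with 3.23 and 6.30 CPM in BVE and 0.137 CPM in BVECTN_5. The members thus did not share a direction.

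Genes of position and organ patterning differed between the lines. Hox genes record the position of a cell along the body axis. Hoxd8 and Hoxd9 had 0 counts in all 4 other libraries and 346 and 112 counts in BVECTN_5. Hoxc4 had 15.5 and 21.3 CPM in BVE and 2 counts in BVECTN_5, against 59.0 CPM in BVECTN_4A, and Hoxb13 was 44.6-fold lower. Of 19 kept Hox genes, 2 were at least 4-fold above and 4 below BVE (median log2 ratio -0.76), while Hoxb4 was at 47.3, 51.4 and 43.1 CPM in BVE without TSH, BVE with TSH and BVECTN_5. Of 47 factors of endoderm, pharynx and the SOX family, 15 were at least 4-fold above and 5 below BVE. Tbx1, a factor of the pharyngeal arches, had 0 counts in both BVE libraries and 337 in BVECTN_5, at least 67.55-fold higher, and Foxd1, a factor of stromal cells, had 2, 1 and 937 counts.

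Chemokines and cytokines had 9 of 34 kept members (26.5%) at least 4-fold above and 3 (8.8%) below BVE (median log2 ratio 0.42, and 0.62 and 0.74 without BVE replicate 1 and replicate 2). Ccl7, which attracts monocytes, had 10.8 and 7.85 CPM in BVE, 142 CPM in BVECTN_5 and 0.120 and 0.0545 CPM in BVECTN_4 and BVECTN_4A. Il33, an alarmin, was 23.45-fold higher, with 1.495 and 0.548 CPM in BVE and 35.1 CPM in BVECTN_5. Il34, a ligand of the Csf1 receptor, had 186 and 117 CPM in BVE and 5.63 CPM in BVECTN_5, and Csf1 itself was at 1651, 928 and 442 CPM. BVECTN_5 thus held more RNA for Ccl7 and Il33 and less for both ligands of that receptor.

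The genes the study examined for recognition by natural killer cells are the ligands of NKG2D, which activate them, and class I molecules, which restrain them. H60a had 0 and 3 counts in BVE and 96 in BVECTN_5 (2.63 CPM, 95% Poisson interval 2.13 to 3.22), close to the 2.65 CPM of BVECTN_4. Raet1e was below both BVE libraries (12.2 and 11.55 CPM against 3.62 CPM) and so was Raet1a (1.70 and 1.28 CPM against 0.357 CPM). Ulbp1 was above both, at 1.66 and 4.02 CPM in BVE and 6.70 CPM in BVECTN_5. The other 5 ligands (H60b, H60c, Raet1b, Raet1c and Raet1d) had at most 1 count in BVE and at most 6 in BVECTN_5, too few to compare, while Raet1d had 214 counts in BVECTN_4A. Of 4 ligands kept, 1 was at least 4-fold above and 0 below BVE, and their median log2 ratio was -0.24 after TMM normalization and 0.48 with library totals. It was -0.47 and 0.13 without BVE replicate 1 and replicate 2. In BVECTN_5 the summed FPKM of the 9 ligands was 9.6, against 9.41 and 8.66 in BVE. Members of these families resemble each other, so reads could have been divided among them, and the study chose these genes on these samples.

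Class I genes lay mostly below BVE, with 0 of 17 kept at least 4-fold above and 6 below BVE (median log2 ratio -1.57, and -0.86 with library totals). H2-T10, annotated as a transcribed pseudogene, had 60.6 and 57.0 CPM in BVE and 3.65 CPM in BVECTN_5, 15.6-fold lower, and H2-K2, H2-Q4, H2-Q2 and H2-Q1 were 9.26-fold, 5.70-fold, 19.1-fold and 4.42-fold lower, beside H2-L. H2-D1 had 871 CPM in both BVE libraries and 280 CPM in BVECTN_5, and H2-K1 323 and 388 CPM against 120 CPM. H2-T22 was above both BVE libraries (55.0 and 78.8 CPM against 127.5 CPM), and B2m, the light chain of class I, lay between them at 595, 1062 and 811 CPM. H2-T23 (69.0 and 101 CPM against 43.9 CPM) and H2-Q7 (1.58 and 1.64 CPM against 0.631 CPM) were below both, Mr1 (24.1 and 26.4 CPM against 38.8 CPM) and H2-T24 (0.606 and 0.548 CPM against 0.906 CPM) above both, and H2-M3 and Cd1d1 between them. H2-Q10, H2-Q6, H2-T3 and H2-M2 had at most 14 counts in any of the 3 libraries. Class I genes have near-identical copies, so values of single genes such as H2-L are uncertain. In BVECTN_4 and BVECTN_4A, too, the classical genes H2-D1 and H2-K1 were below both BVE libraries. In the list of 14 genes of peptide loading 0 were past 4-fold, and of 38 interferon-stimulated genes 2 were at least 4-fold above and 3 below BVE. Of 13 kept further ligands of natural killer cells and checkpoints 0 were at least 4-fold above and 1 below BVE.

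Genes of energy metabolism lay mostly below BVE. Of 25 genes of glycolysis and hypoxia, 17 were below and 3 above both BVE libraries by any amount, and 3 were at least 4-fold below. The median log2 ratio was -1.64, and -0.90 with library totals and in FPKM. Car9, a carbonic anhydrase induced by low oxygen, had 43.4 and 108 CPM in BVE and 0.220 CPM in BVECTN_5 (95% Poisson interval 0.0948 to 0.433), 197.5-fold lower. BVECTN_4 and BVECTN_4A, at 0.692 and 0.736 CPM, were also far below BVE. Eno1, an enolase, had 5964 and 9542 CPM against 1427 CPM, and Gapdh had 12157 and 31551 CPM against 3332 CPM. Without BVE replicate 2 (TSH), in which these genes were higher, the median was -0.89.

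Of 27 subunits of the respiratory chain and ATP synthase, 23 were below and 2 above both BVE libraries, with 0 past 4-fold, and the median log2 ratio was -1.16 (-0.45 with library totals). Atp5a1 had 3027 and 3697 CPM in BVE and 831 CPM in BVECTN_5, and Cox6c went the other way with 59.25 and 71.8 CPM against 206 CPM. With library totals the median of all genes was 0.78, so both lists lay below it on every scale used. Among 21 targets of NRF2, the antioxidant factor, and metallothioneins, 2 (9.5%) were at least 4-fold above and 1 (4.8%) below BVE, near the shares over all genes. The median log2 ratio was 0.74, and 0.14 and 1.25 without BVE replicate 1 and replicate 2. Gclc and Gclm, which make glutathione, were 6.83-fold and 4.90-fold higher. Among 26 genes of sterol and fatty acid synthesis 1 was at least 4-fold above and 0 below BVE.

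Levels of the most abundant transcripts are given in FPKM. Per transcript length, the highest FPKM in BVECTN_5 was that of Eef1a1, the elongation factor, at 13865.6 FPKM, against 21695.2 and 17481.9 FPKM in BVE without and with TSH. Bc1, a noncoding RNA of neurons, was the next at 8581 FPKM, against 21075.0 and 24367.1 FPKM. Ftl1 and Fth1, the chains of ferritin, followed at 6895 and 6160 FPKM, and Fth1 was above both BVE libraries in FPKM (2595 and 3194). The other 6 of the 10 highest were Rplp0, Rps2, Rplp1, Rpl41 and Rps26 of the ribosome and Lgals1, a galectin. All 6 were lower in FPKM in BVECTN_5 than in both BVE libraries.

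**Figure D4:**
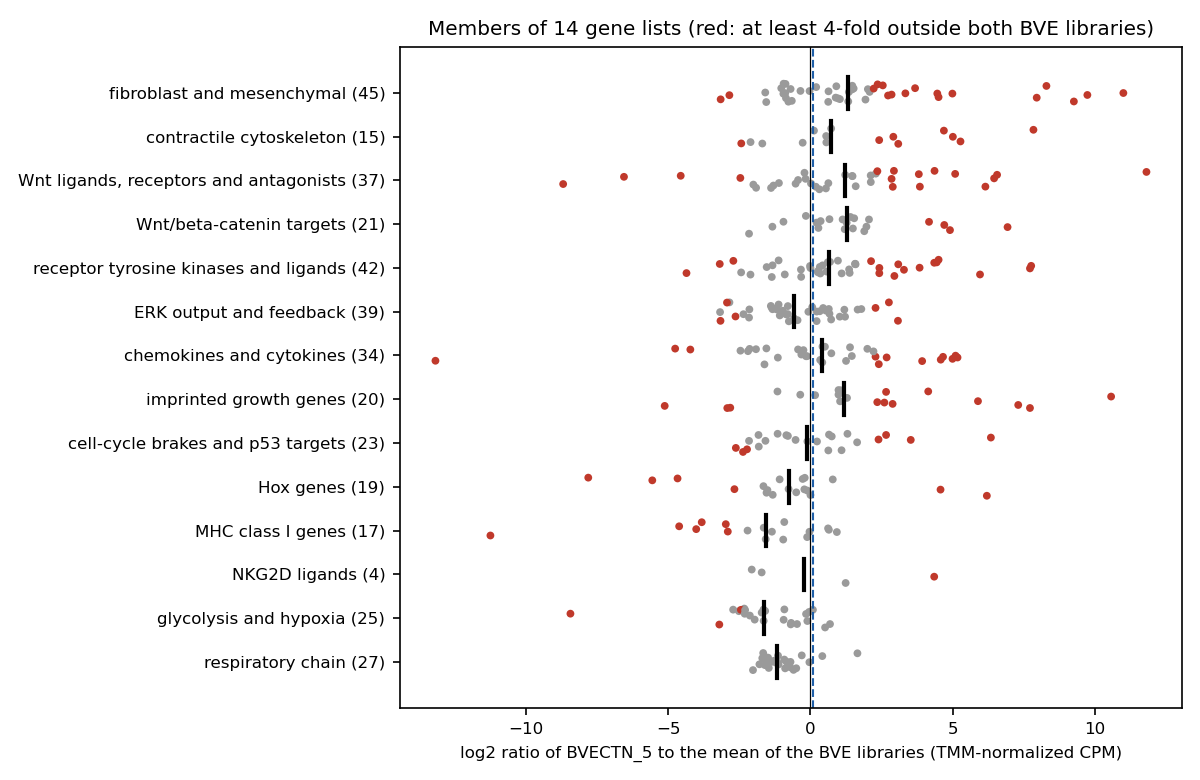
Log2 ratio of BVECTN_5 to the mean of both BVE libraries (x axis, TMM-normalized CPM) for the kept members of 14 gene lists (number of genes in brackets), 1 point per gene, red where the gene was at least 4-fold outside both BVE libraries. Black bars are the medians of the lists, which among the lists drawn run from 1.33 for fibroblast and mesenchymal genes to -1.64 for glycolysis (lists with higher medians, such as the epithelial and endothelial ones, are not drawn), and the dashed line is the median of all genes, 0.08.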

How the data were processed

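RNA of cultured mouse thyroid tumor cells was sequenced in 5 libraries with a TruSeq kit, and BVECTN_5 was compared with both BVE libraries. The authors deposited 1 table per library with an estimated count and an FPKM for each transcript, listed from an FPKM of 0.01 upward, and libraries were not pooled. The aligner, counter and genome build are not given in the sources used here. The deposited estimated counts and deposited FPKM values were summed over transcripts per gene and counts rounded. Of 17923 gene IDs, 17866 were named from a RefSeq table and 10 from the study's supplement, and 47 stayed unnamed. Columns left out numbered 0.

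Genes with at least 10 counts in 1 of the 3 libraries were kept. CPM used TMM factors of 0.8131 and 0.7136 for BVE without and with TSH and 1.2391 for BVECTN_5. The floor was 3 counts per library. edgeR 4.0.16 (glmQLFit, glmQLFTest, R 4.3.3) was fitted to 5 libraries in 3 groups (BVE, BVECTN_5, other null lines) with Benjamini-Hochberg adjustment, and DESeq2 1.42.0 and limma 3.58.1 on log2(FPKM + 0.1) were alternatives. The fits were tested on simulated counts with known changes. At the spread of the 5 libraries edgeR missed most of these changes, and DESeq2 made more false calls than edgeR. At a lower spread most changes were recovered. Totals of 29360002 to 30713079 counts per library bound the precision of single genes. The p-values rest on the spread between BVE without and with TSH and between the lines BVECTN_4 and BVECTN_4A. That spread thus includes a difference in TSH and one between lines, and part of it may be technical. Alternatives were other scalings, floors, filters and folds and leaving out single libraries.

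Named genes are the 12 with the largest ratio in each direction among genes of at least 50 CPM on the high side, the 10 with the highest FPKM in BVECTN_5, up to 6 members of each of 35 gene lists by ratio and by FPKM, all NKG2D ligands and class I genes, and Ctnnb1, Postn, Dcn and Thy1. Defining markers outside that rule (among them Tg, Tshr, Foxe1, Lum, Myh11, Pdgfra, Pdgfrb, Col1a2, Epcam, Pecam1 and Sox10) and Braf and Axin2 were added after their values were seen. Members and lists were chosen with earlier results of these data known, and lists were partly taken from earlier work on them. Some genes the rule names are not reported here. Sequences are from RefSeq (GRCm38.p6).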

Additional observations from a re-analysis of the deposited data

Results flagged for a closer look

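Among the genes of the lists and the 12 leading genes of each direction, there were 4 for which BVECTN_5 lay at least 4-fold above both BVE libraries while BVECTN_4 and BVECTN_4A both lay at least 4-fold below the BVE mean, so lines labelled with the same genotype stood on opposite sides of BVE. Genes outside these lists met the same limits, among them Thbs2 and Slit3, and are not treated here. In Lama4, a laminin chain, the log2 ratio to the nearer BVE library was 4.24 in BVECTN_5, and the log2 ratio to the BVE mean was -4.54 in BVECTN_4 and -2.27 in BVECTN_4A. Mmp3, a stromelysin, had 3.92 against -4.89 and -2.37. For Ccl7, a chemokine of monocytes, the values were 3.71, -6.28 and -6.84. Dpt, the matrix protein dermatopontin, had 2.53, -2.40 and -2.54. In edgeR's quasi-likelihood test of BVECTN_5 against both other null libraries the adjusted p was 0.334 for Lama4, 0.523 for Mmp3, 0.14 for Ccl7 and 0.473 for Dpt, so 0 of the 4 passed. The genes were singled out by these values.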

How the results depend on the processing

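The direction was kept in all 24 leading genes, each of which stayed at least 4-fold outside BVE under every scaling tried. These genes were chosen for the largest ratios, so that choice largely set this outcome and it supports nothing. Of the 688 lower genes, 355 stayed past 4-fold with library totals and 308 in FPKM, against 1480 and 1320 of the 1480 higher ones. The counts of genes past 4-fold above and below were 2682 and 355 with library totals, 2317 and 313 in FPKM, 663 and 434 with at least 10 counts in each library, 3375 and 2281 at 2-fold and 692 and 283 at 8-fold. Leaving out a BVE library gave 1908 to 2006 genes above and 1016 to 1091 below.

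The number of genes that passed a test against BVE, 0 higher and 0 lower in edgeR, depended on the fit. DESeq2 called 525 and 411, edgeR without a filter 31 and 10, limma with a pseudocount of 1 189 and 6 (0 and 0 at 0.1 and 0.01), and edgeR on the 3 libraries alone 2086 and 1519. Leaving out single libraries gave 0 to 2157 higher and 0 to 1522 lower genes: without BVECTN_4 it was 2102 and 1499 and without BVECTN_4A 2157 and 1522, where the spread rests on the BVE libraries alone. Against the other null lines (0 and 0) the counts were 193 and 155 with DESeq2, 26 and 0 without a filter, 186 and 1 with a pseudocount of 1, and 21 to 1249 higher and 0 to 1394 lower on leaving out a library (769 and 543 without BVECTN_4, 1249 and 1394 without BVECTN_4A, 21 and 0 without either BVE library).

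No paired analysis was possible because BVECTN_5 carries replicate number 3, which no BVE library has. With 1 library of BVECTN_5 no count carries a replicate check on that side. Depth limits genes near the floor: 442 of the higher genes had at most 3 counts in both BVE libraries and 163 of the lower at most 3 in BVECTN_5.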
